A study of Homo sapiens and Homo sapiens
Mus musculus and Mus musculus with 9 samples.

Results

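Abundant long non-coding RNAs (lncRNAs) of C4-2B prostate cancer cells were described from a table of pooled gene means. The genes were chosen by their pooled Xenome mean: they were those typed as lncRNA with a mean of at least 1000 normalized counts in the Xenome pipeline, after the SNHG genes and MALAT1, NEAT1, PCGEM1, PCAT1, PCA3, H19, LINC01088, DRAIC and GAS5 had been set aside. This left 74 genes of the 10553 lncRNA genes and the 41713 genes in the table, and 17 further lncRNA genes reached the minimum but carried one of the names set aside. The mean itself chose the genes, so their high level is a description and was not tested.

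C4-2B is a human prostate cancer line, and MC3T3-E1 is a mouse osteoblast line. Human C4-2B cells grown alone (3 libraries) were set against the same cells mixed with mouse MC3T3-E1 cells at 30 mouse cells per human cell (3 libraries), all labelled wild type and kept in serum-supplemented alpha-MEM. The methods of the study describe co-cultures with C4-2B cells that carry a lentiviral GFP label, and whether the sequenced cells carried it is not given in their sample labels. The 3 libraries of MC3T3-E1 alone are not part of the table. Each group rests on a single line per species, and the human and the mouse cells of the mixed culture were separated by read sequence and not by sorting. Every value is 1 mean over the 6 libraries of both groups, so no value per library, no replicate error and no difference between co-culture and C4-2B alone is given here.

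LncRNAs are transcripts longer than small RNAs that are not known to be translated into protein, and most are made by RNA polymerase II, spliced and polyadenylated like mRNAs. Some act in the cytoplasm by binding proteins or miRNAs, some act on chromatin near the place where they are made, and some are mainly known as the precursors of miRNAs or small nucleolar RNAs kept in their introns. Many start close to a coding gene and are read in the opposite direction from it.

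The most abundant gene, NORAD (non-coding RNA activated by DNA damage), is known to bind Pumilio proteins, which recognise the RNA form of the word TGTANATA, where N is any base. The single-exon NORAD transcript of 5401 bases held 15 matches to that word on its own strand, between positions 819 and 4657. Of these, 10 read TGTATATA, 4 read TGTAAATA and 1 read TGTACATA. In 3 places, 2 matches started 9 bases apart. Those places are shown with 10 bases on each side and the matches in capitals, from the minus strand of GRCh38 (GENCODE 44), at chr20:36049493-36049529, chr20:36048296-36048332 and chr20:36047660-36047696.
NORAD pair 1: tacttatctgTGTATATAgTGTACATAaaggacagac
NORAD pair 2: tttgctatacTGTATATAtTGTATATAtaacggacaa
NORAD pair 3: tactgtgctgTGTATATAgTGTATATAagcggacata

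No other gene of the 74 held as many matches in its longest transcript. NORAD had 2.78 matches per kilobase. LINC00632, the host of the circular RNA CDR1as, had 10 matches in 21234 bases, or 0.471 per kilobase. TMEM161B-AS1 had 6 and EBLN3P had 4. There was no match in 45 of the 74 longest transcripts, nor in 1097 of 1329 other lncRNA genes with a mean of at least 50, among which the highest number was 37. The median longest transcript was 4158.5 bases for the 74 and 2158 for the other genes, so these counts are not at equal length. These other lncRNA genes, also used below for lengths, levels per kilobase, gene positions and shared words, include the 17 abundant genes set aside by name. A match is a stretch of letters and not a measured binding site, and the word was chosen after the levels had been seen.

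**Figure D1:**
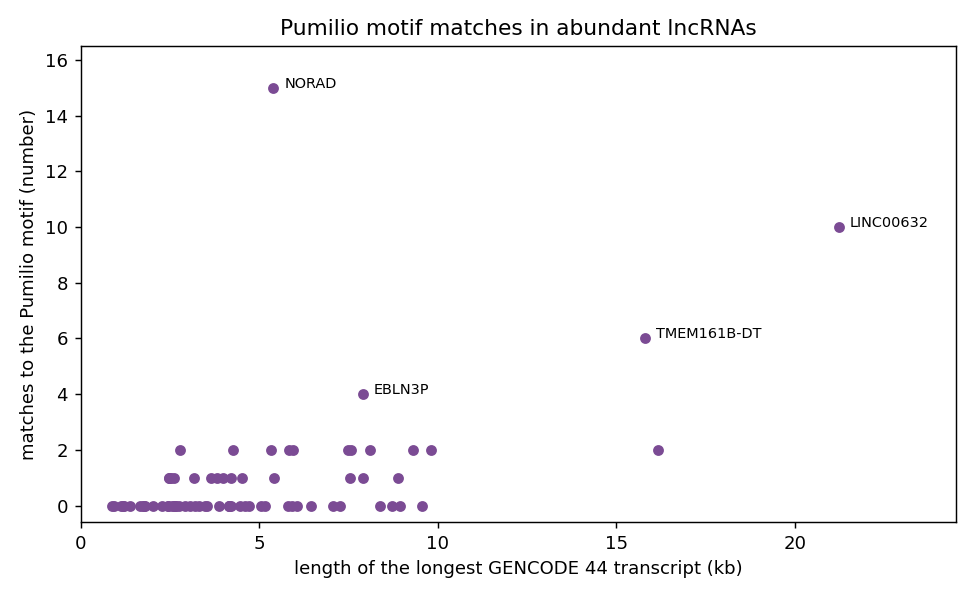
Matches to the word TGTANATA (y axis, number on the transcript strand) against the length of the longest GENCODE 44 transcript (x axis, kilobases), with 1 point per gene for the 74 abundant lncRNA genes. NORAD stands at 15 matches in a transcript of 5401 bases, and LINC00632 has 10 in a transcript of 21234 bases.

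OIP5-AS1, known as cyrano, carries a conserved site for miR-7 that is known to promote decay of this miRNA. The longest run of letters that its transcripts shared with mouse GENCODE M21 transcripts was 72 bases, at chr15:41300556-41300627 on the plus strand of GRCh38, and the mouse gene was 1700020I14Rik. Within the run, positions 37 to 43 were complementary to the seed of miR-7-5p (bases 2 to 8). A further 14 bases were complementary to miRNA bases 11 to 24, and 4 bases lay between these stretches. Both complementary stretches are in capitals in the OIP5-AS1 run, and the capitals of the miRNA, taken from RefSeq (GRCh38.p14), mark its seed.
OIP5-AS1: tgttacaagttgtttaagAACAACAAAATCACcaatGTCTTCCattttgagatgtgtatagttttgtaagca
hsa-miR-7-5p: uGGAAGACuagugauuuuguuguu

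The longest OIP5-AS1 transcript held 3 matches to this seed, and 25 of the 74 longest transcripts held at least 1. These matches were not counted in other lncRNA genes, so the number is a description only.

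Read counts were spread unevenly over the 74 genes. NORAD had a mean of 23434 normalized counts in Xenome and 23414 in XenofilteR. TUG1, an RNA known from retinal development and from binding of chromatin regulators, had 15499 and 15502. These were the 2 genes above 10000, and together they held 20.7% of the summed mean of the 74.

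RAB4A-AS1, listed only as ENSG00000177788 in the table, had 8484 normalized counts in Xenome and 8495 in XenofilteR. OIP5-AS1 had 6960 and 6974. DANCR, which is known as a repressor of differentiation and holds a small nucleolar RNA, had 6676 and 6659. EBLN3P, a gene derived from an ancient bornavirus insertion, had 5265 and 5256. These genes filled the range from 5000 to 10000, which held 4 of the 74.

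LINC01278 had 4571 normalized counts in Xenome and LINC00963 had 4443. FGD5-AS1 had 4374, LINC00665 had 4079, MIR99AHG had 3771 and COLCA1 had 3764. From 2000 to 5000 there were 16 genes, and the other 52 lay between 1000 and 2000. The median was 1537 in Xenome and 1536 in XenofilteR.

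The 74 genes held 28.1% of the summed mean of all lncRNA genes, while the whole lncRNA class held 1.58% of the sum over all genes. MALAT1, which was set aside, held 10.5% of the lncRNA sum by itself. The median over all 10543 lncRNA genes with a Xenome mean was 2.97. At the lower edge, ZNF674-AS1 had 1023, PCCA-DT 1014 and ENSG00000286388 1014, and just outside it NBR2 had 980, GARS-DT 968 and CRNDE 961. The edge therefore runs through a continuous range of levels.

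**Figure D2:**
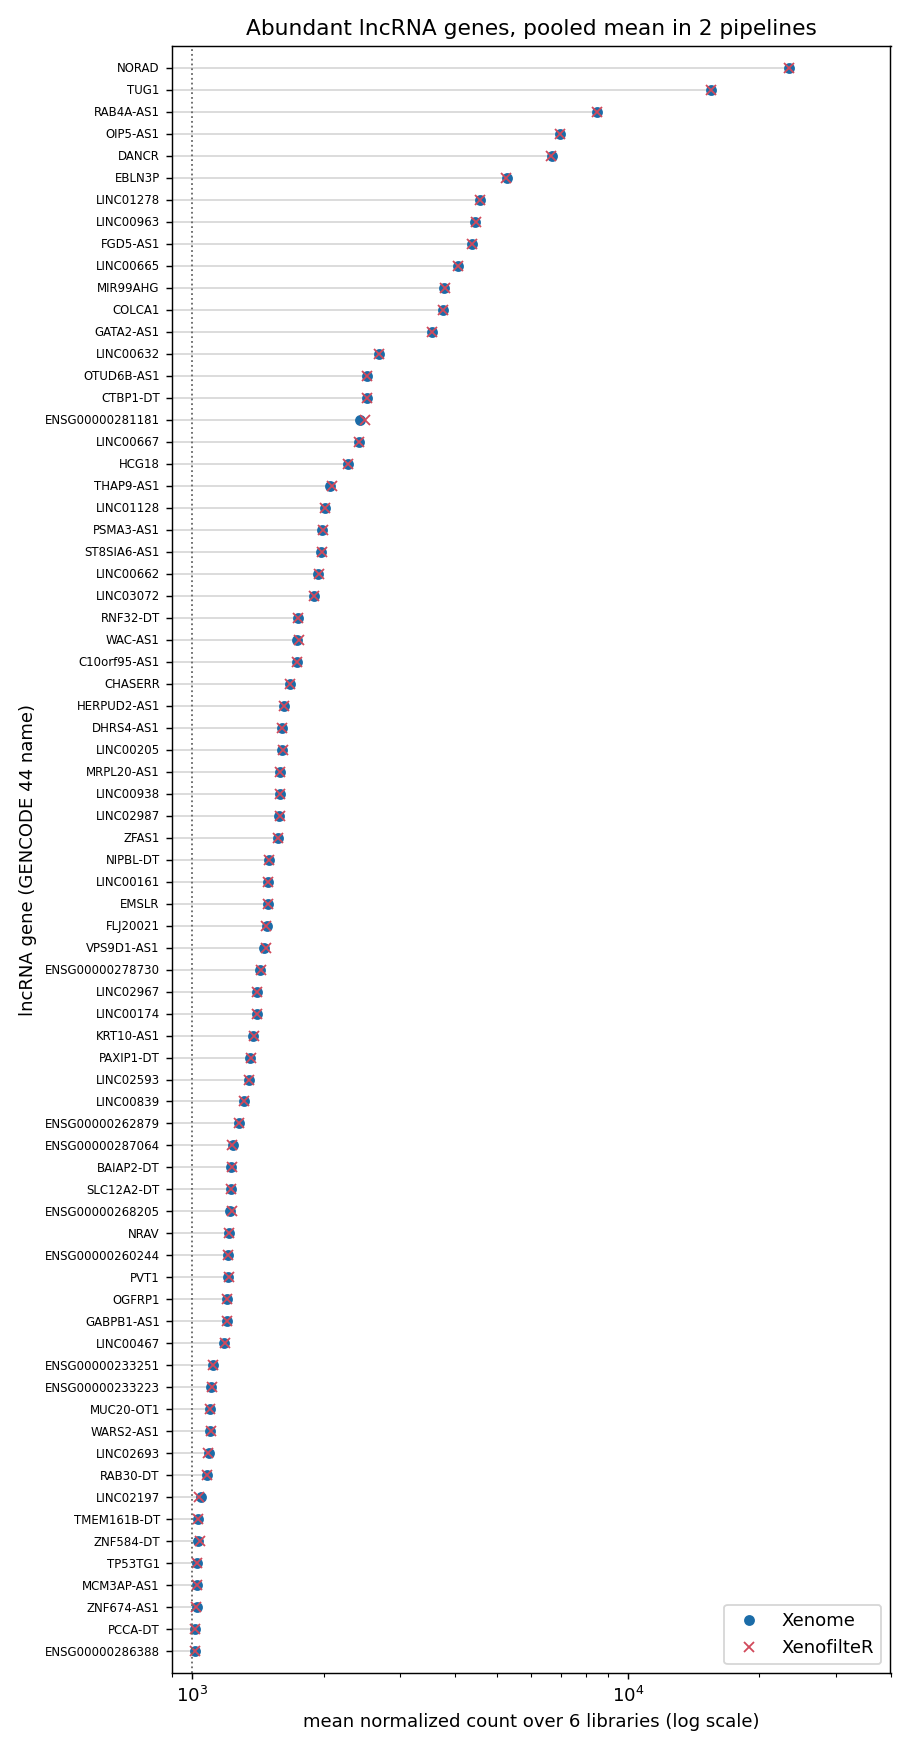
Mean normalized count over 6 libraries (x axis, log scale) for 73 of the 74 abundant lncRNA genes (y axis, GENCODE 44 names), with Xenome as circles, XenofilteR as crosses and the minimum of 1000 as a dotted line. NORAD at 23434 and TUG1 at 15499 stand apart from the rest, and the circle and the cross of ENSG00000281181 separate visibly.

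A long transcript gives more reads than a short one, so levels were also divided by the exon length of each gene, the union of its GENCODE 44 transcripts. NORAD stayed first with 4339 normalized counts per kilobase, a level above that of 97.9% of 11648 protein-coding genes with a mean of at least 50. ENSG00000281181, of 923 bases, followed with 2621. LINC00161 had 1714 and TUG1 had 1527 per kilobase. LINC00161 and ENSG00000281181 both have less than 1 kilobase of annotated exon. Of the 31-base words of ENSG00000281181, 88.4% also occur in mouse transcripts, and the part of mouse reads in its level was not tested.

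The lowest level per kilobase was that of TMEM161B-AS1, with 29.3 normalized counts. It was also lowest, at 65.3, when the longest annotated transcript was used in place of the exon union. PVT1, a neighbour of MYC that is known from gains in many cancers, had 47.4 per kilobase. With its longest transcript, of 2450 bases, PVT1 had 492, so its low place depends on the exon union. LINC00662 had 58.5, MUC20-OT1 had 62.4 and LINC02693 had 62.5. With the longest transcript, LINC00662 had 301, MUC20-OT1 had 261 and LINC02693 had 138. MIR99AHG, with 58906 bases of annotated exon, had 64.0 per kilobase although its total was among the 12 highest. Of the 12 genes with the highest mean, 4 were also among the 12 highest per kilobase.

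The median level per kilobase was 289 for the 74 genes and 58.5 for other lncRNA genes with a mean of at least 50. It was 281 for the protein-coding genes with a mean of at least 50, and 38 of the 74 lncRNA genes lay above that value. The 74 were chosen at a higher minimum mean than these coding genes. The nearness of 289 and 281 therefore does not compare lncRNA with coding genes at a like minimum. The 74 genes had a median exon length of 6998 bases and 10 annotated transcripts, against 2664 bases and 2 transcripts for the other lncRNA genes. These differences were not tested, since both the length and the mean bear on the choice of the genes.

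**Figure D3:**
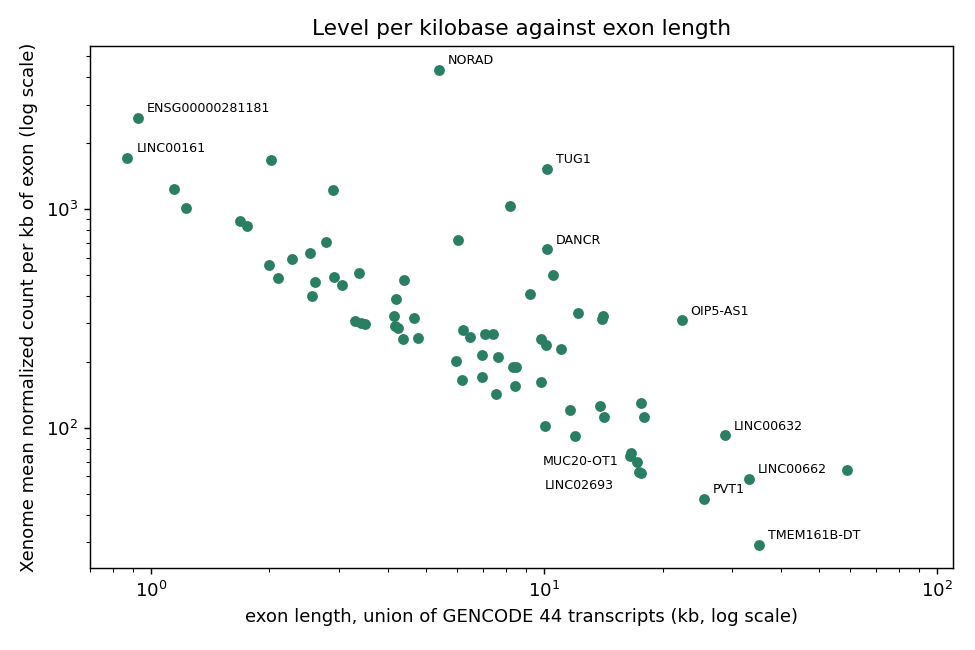
Xenome mean normalized count per kilobase of exon (y axis, log scale) against exon length (x axis, kilobases, log scale) for the 74 abundant lncRNA genes. NORAD at 4339 and TUG1 at 1527 lie above genes of like length, and TMEM161B-AS1, labelled by its GENCODE 44 name TMEM161B-DT, is lowest at 29.3.

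Of all lncRNA genes with a Xenome mean, 0.702% were abundant by the rule, and the lists of genes by role are given beside that share as a description. Of 13 genes in a list labelled cytoplasmic or mitosis-related, 11 had a mean and 6 were abundant. They were NORAD, TUG1, OIP5-AS1, FGD5-AS1, HCG18 with 2281 normalized counts and PVT1 with 1206. The label is broad, and where these RNAs lie in the cell was not measured here. Below the minimum were CRNDE with 961, MIR4458HG with 825, CASC2 with 152 and LINC-PINT with 89.3. BCYRN1 had 4750 but is typed as scRNA and could not be chosen. Of 8 genes of imprinted domains, 6 had a mean and 0 were abundant, and the highest was KCNQ1OT1 with 555, which silences neighbouring genes in cis. Of 13 further lncRNAs linked to the prostate or to androgens, 12 had a mean and 0 were abundant. The highest of these was CTBP1-AS with 364, followed by PCAT7 with 330, and SCHLAP1 had 104. The imprinted gene H19 and the prostate lncRNAs named in the choice rule were set aside beforehand, so these counts do not cover them, and at a share of 0.702% a count of 0 in lists this short says nothing particular about them.

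Of 14 listed hosts of small RNAs, 12 had a mean, and MIR99AHG, DANCR, ZFAS1 and TMEM161B-AS1 were abundant. MIR99AHG is the host of miR-99a, let-7c and miR-125b, whose mature forms are shown from RefSeq (GRCh38.p14) with the seed, bases 2 to 8, in capitals. The 3 seeds differ from each other. The miRNAs lie on the plus strand at chr21:16539101-16539122, chr21:16539838-16539859 and chr21:16590253-16590274.
hsa-miR-99a-5p: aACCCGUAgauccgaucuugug
hsa-let-7c-5p: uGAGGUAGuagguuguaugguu
hsa-miR-125b-5p: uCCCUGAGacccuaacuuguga

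The host had a mean of 3771 normalized counts, and 2 of its 3 miRNA genes had a row, both below 1. MIR99A had 0.156, which is solved by 5 reads over all libraries, and MIRLET7C had 0.213, which is solved by 7 reads. MIR570 in MUC20-OT1 was higher, at 51.9. MIR4449 in DANCR had 0.178 and SNORA26 in DANCR had 6.87. In ZFAS1, the host of SNORD12 genes, SNORD12C had 3.45 and SNORD12B had 0.988. The libraries were made from polyadenylated RNA, and mature miRNAs and snoRNAs carry no poly(A) tail, so these values do not measure the processed small RNAs.

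All 74 genes were matched to GENCODE 44 by identifier, and 56 had the start and end given in the table. TUG1 is annotated as protein-coding in GENCODE 44, and the others as lncRNA. Of the 74, 29 (39.2%) started within 1000 bases of the start of a coding gene on the other strand, against 37.9% of the other lncRNA genes with a mean of at least 50. Exon overlap with a coding gene on the other strand was found for 32 (43.2%), against 45.3%. A miRNA lay within 5 of the 74 (6.76%), against 3.16%. A single exon block was annotated for 16 (21.6%), against 29.4%. These shares were close to each other for position relative to coding genes, and they were not tested.

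The 29 genes that start beside a coding gene were set against that partner per kilobase of exon. The lncRNA was higher in 12 pairs and the coding gene in 17, and 12 pairs lay within 2-fold of each other. TMEM161B was 6.27 times as high as TMEM161B-AS1, and PPP3CA was 5.12 times as high as FLJ20021 (ENSG00000254531). In the other direction, CARMIL3 had 0.0349 times the level of DHRS4-AS1 and ZNF674 had 0.161 times that of ZNF674-AS1. MORC2 had 0.261 times the level of TUG1. RAB4A and RAB4A-AS1 were nearly level, at a ratio of 1.08.

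Neither side of the pairs was thus higher throughout. The lncRNA of each pair had been chosen by its own high mean, while no such minimum was set for the coding partner. The numbers of pairs on either side therefore depend on that choice. They are a description and do not compare lncRNA genes with their partners in general. Whether the counting used the strand of the reads is not given in the sources used here. Where exons overlap on opposite strands, reads of the genes cannot be told apart without it. Such overlap covered over 20% of the exon length in 5 of the 74, and EMSLR, with 3887 of 4677 bases shared with IFT22, had the most. Exon overlap with a coding gene on the same strand, which the strand of a read does not resolve, was found for 7 of the 74 (9.46%), against 6.62% of the other lncRNA genes. Of the 2615 bases of ENSG00000260244, 2612 lay within exons of GUCY1A1, and MUC20-OT1 shared 1851 bases with MUC20.

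**Figure D4:**
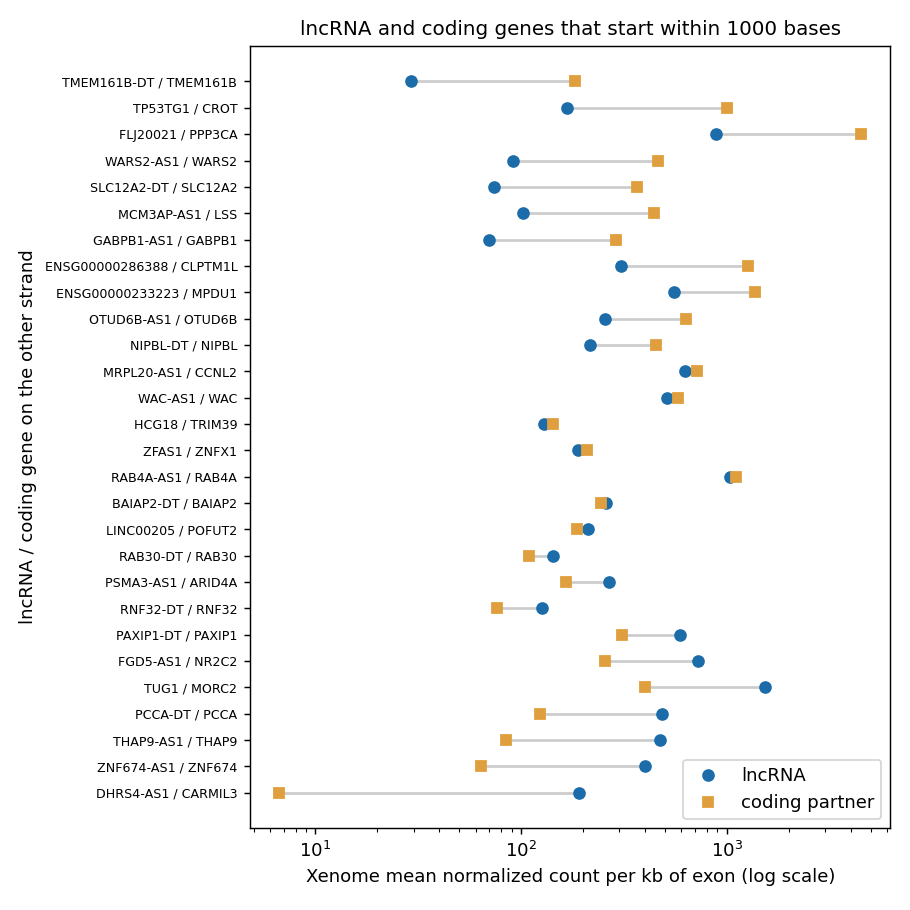
Xenome mean normalized count per kilobase of exon (x axis, log scale) for 28 of the 29 lncRNA genes (circles) and the coding gene that starts within 1000 bases on the other strand (squares), ordered by the ratio of the levels (y axis, lncRNA / coding gene, GENCODE 44 names). The coding gene is higher in 16 of the pairs drawn, and CARMIL3 beside DHRS4-AS1 is the lowest partner.

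Promoters of 70 of the 74 genes were found in RefSeq (GRCh38.p14), from 250 bases before the start to 50 bases from it on. They held a median of 23 CpG pairs, as did those of 471 other lncRNA genes with a mean of at least 50. The median over all 35116 promoters was 14. The 471 genes are fewer than the 1329 other lncRNA genes compared above, so the likeness covers only those with a promoter found. The word GGGCGG, the core of the GC box, was present on either strand in 61.4% of the 70, in 59.7% of the other lncRNA promoters and in 45.0% of all promoters. The word TATAAA, the TATA box, was present in 11.4%, 7.43% and 11.5%. The word AGAACA, a half-site of steroid receptors, was present in 12.9%, 9.98% and 14.8%. The abundant and the other lncRNA promoters thus differed little in base composition.

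The table gives the same genes after 2 ways of removing mouse reads, and these were compared gene by gene. The XenofilteR mean divided by the Xenome mean had a median of 1.001 over the 74 genes. It lay above 1 for 47 genes and below 1 for 27. Among all lncRNA genes with both means of at least 50, it lay above 1 for 675 and below 1 for 743. Among all genes with such means, the numbers were 7251 and 6821. Of the 74, 69 (93.2%) were within 1% of equality. The share within 1% was 84.8% for all lncRNA genes with both means of at least 50, 80.1% for protein-coding genes with a mean of at least 1000 and 24.3% for processed pseudogenes at that level. It was 88.2% for the 17 lncRNA genes set aside by name that reached 1000. The 84.8% covers genes down to a mean of 50, so it is not a comparison at a like level. Kallisto gave no mean for any of the 10553 lncRNA genes, so the third pipeline adds nothing here.

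The gene with the highest ratio was ENSG00000281181, with 2419 normalized counts in Xenome and 2491 in XenofilteR, a difference of 2.98%. It was followed by ZNF584-DT (ENSG00000232098) with 1.13%, VPS9D1-AS1 with 1.10% and ENSG00000268205 with 1.08%. WAC-AS1 came next, with 1735 normalized counts in Xenome and 1752 in XenofilteR. The lowest was LINC02197, at -1.09%, before FLJ20021 (ENSG00000254531) at -0.784% and ENSG00000287064 at -0.570%. LINC02693 was at -0.529% and DHRS4-AS1 at -0.414%. All but ENSG00000281181 were therefore within 1.13% of equality.

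**Figure D5:**
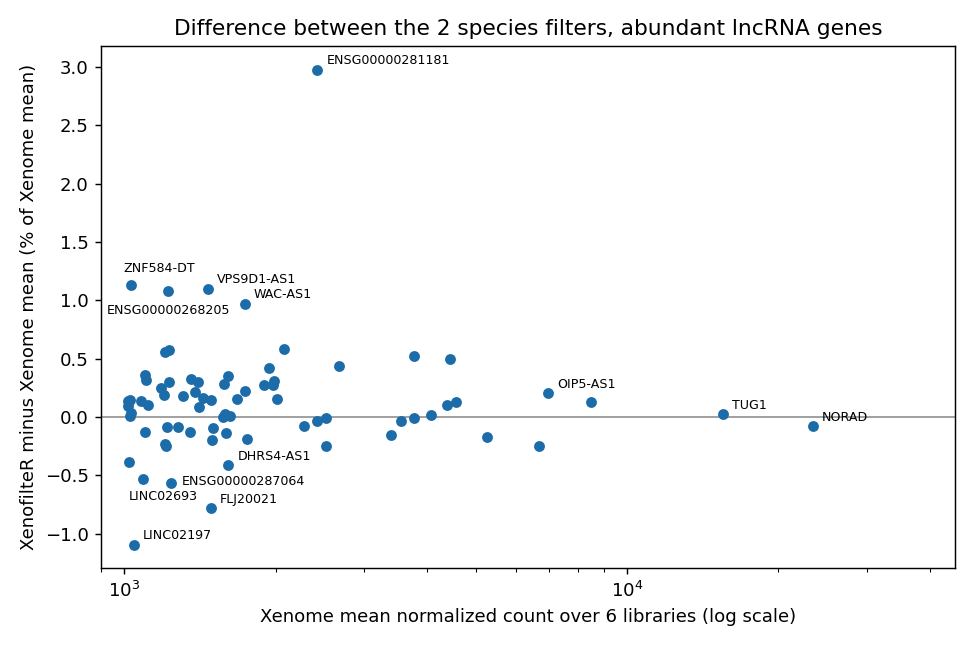
XenofilteR mean minus Xenome mean, as a percentage of the Xenome mean (y axis), against the Xenome mean normalized count (x axis, log scale) for the 74 abundant lncRNA genes. ENSG00000281181 stands apart at 2.98%, and LINC02197 is lowest at -1.09%.

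Sequence shared with the mouse was measured as the share of 31-base words of a gene's transcripts that occur in mouse transcripts. The median share was 0.0453% for the 74 genes, and 29 of them (39.2%) had no shared word. It was 0.826% for protein-coding genes with a mean of at least 1000, of which 7.75% had none. For other lncRNA genes with a mean of at least 50 the median was 0, and 59.6% had none. The 74 genes thus lay between these groups in the median and in the share with none. A longer gene holds more words that can match. The median exon length was 6998 bases for the 74 and 2664 for the other lncRNA genes, and the part of length in these shares was not tested. At a share of at least 1%, the 74 genes were represented by 3 genes, too few to rank them against the other lncRNA genes. A share of at least 1% was found for 3 of the 74, 85 of 1329 other lncRNA genes and 3280 of 7314 protein-coding genes. The 3 abundant lncRNA genes were ENSG00000281181 with 88.4%, COLCA1 with 1.66% and TUG1 with 1.49%.

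ENSG00000281181 lies at chr21:8437629-8438551, and its longest identical run of 559 bases matched a mouse transcript typed as ribosomal RNA. Most of its words therefore do not separate human from mouse reads. The longest run in COLCA1 was 181 bases (chr11:111298245-111298425, minus strand), shared with 2010007H06Rik. That of TUG1 was 162 bases (chr22:30969401-30969562, plus strand), shared with mouse Tug1. Both are shown in full, from GRCh38, as stretches whose letters are the same in transcripts of both species. A fragment can reach beyond such a run, and how its reads were assigned was not tested.
COLCA1: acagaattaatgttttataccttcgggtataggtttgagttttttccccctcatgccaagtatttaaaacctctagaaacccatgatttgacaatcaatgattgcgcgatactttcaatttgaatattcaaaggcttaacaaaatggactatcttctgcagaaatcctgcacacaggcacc
TUG1: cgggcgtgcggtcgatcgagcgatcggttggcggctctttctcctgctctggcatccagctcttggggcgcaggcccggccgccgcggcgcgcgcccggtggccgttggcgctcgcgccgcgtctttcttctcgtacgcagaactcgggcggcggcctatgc

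MIR99AHG had a run of 119 bases, LINC02197 one of 55, NORAD one of 37 and DANCR one of 35. The 2 pipelines differed by -0.0108% for COLCA1, 0.0219% for TUG1, 0.520% for MIR99AHG and -1.09% for LINC02197 (XenofilteR minus Xenome). The median size of the difference was 0.203% for the 45 genes with a shared word and 0.187% for the 29 without, and the highest was 2.98% and 1.13%. Sharing of words was not tested as a cause of the differences.

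The libraries behind the means differed widely in depth. The lowest means are built from single reads, and 1 read added 0.0281, 0.0314 and 0.0343 to the Xenome mean in the 3 deepest libraries but 0.391, 1.15 and 1.53 in the other 3. The libraries were not tied to groups here. At an equal level in all libraries, a mean of 1000 would rest on 16782 reads in all, with 5926 in the deepest library and 109 in the shallowest, and 95.9% of the reads would lie in the 3 deepest libraries. For the abundant lncRNA genes, counting error is thus small in 3 libraries and larger in the other 3.

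The labelled cell types were checked by their markers. Prostate luminal genes were high, with KLK3 at 51038 normalized counts in Xenome, FOLH1 at 37664 and HOXB13 at 10532, and 9 of 10 listed genes had a mean. Of 10 osteoblast genes, COL1A1 had 3384 in Xenome and 4557 in XenofilteR, and RUNX2 had 411 and 399.7. SPARC had 72.0 and 142, COL1A2 had 45.0 and 264, and the other 6 were at or below 8.47 in both pipelines. The part of mouse reads in the lncRNA means was not tested. The comparison of pipelines cannot measure it, because mouse reads kept by both Xenome and XenofilteR would not show as a difference between them.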

How the data were processed

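RNA from 3 libraries of C4-2B alone and 3 of the mixed co-culture had been sequenced as stranded, poly(A)-selected libraries. The authors separated species by Xenome, XenofilteR (both with HISAT2 and featureCounts) or Kallisto and normalized with DESeq2. The deposited table holds, for each pipeline, 1 pooled mean of normalized counts per gene, which is the authors' mean and carries no SD. It also holds 15 columns of the authors' comparison (fold change, standard error, statistic, p-value, adjusted p-value), which were not used. Without values per library, the planned edgeR test was not run. Of 41734 rows, 21 that repeat a gene were dropped. Genes named in the text were the 12 highest means, 3 on each side of the minimum, the 5 highest and lowest ratios and levels per kilobase, and genes of role lists; a few genes that this rule picks are not reported here. The genes and lists were chosen with earlier results of these data known. Annotation came from GENCODE 44, with mouse GENCODE M21 for shared words. Depth was solved from the lowest means. The search for shared words and the solving of depth were each tested on simulated data. Motifs, shared runs, partners and hosted RNAs were chosen after the values were seen.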

Additional observations from a re-analysis of the deposited data

How the results depend on the processing

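The number of genes was 174 at a minimum mean of 500 and 22 at a minimum of 2000. It stayed at 74 when the minimum was applied to the XenofilteR mean or when repeated rows were kept, and was 91 with the names set aside kept. The share of the summed lncRNA mean was 28.7% when only lncRNA genes with a mean of at least 10 were counted. The median level per kilobase was 417 with the longest annotated transcript in place of the exon union. Of the 12 highest means, 6 in place of 4 were among the 12 highest per kilobase with that length. The median ratio of the pipelines ranged from 1.0002 to 1.001. The share of the sum was 28.1% with the XenofilteR mean, and none of the 74 genes had a Kallisto mean. No paired analysis was possible because the table holds no values per library. For the same reason, leaving out replicates and another normalization were not run, and no replicate error of the means can be given. The standard errors of the authors' comparison were not used.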
